A study of Mus musculus with 9 samples.

Results

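The HOX genes encode homeodomain transcription factors that give cells along the body and limb axes their position. In mammals they lie in the HoxA, HoxB, HoxC and HoxD clusters, on chromosomes 6, 11, 15 and 2 of the mouse, and genes in matching places of the clusters form 13 paralog groups. In the developing limb, groups 9 and 10 pattern the upper segment, group 11 the middle segment and group 13 the hand or foot, and connective tissue cells are known to keep much of their HOX code in the adult. HOX proteins bind DNA with TALE homeodomain partners of the PBX and MEIS families, and Polycomb and Trithorax complexes hold the clusters silent or active.

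The members described here are the 39 protein-coding genes named Hoxa, Hoxb, Hoxc or Hoxd and a number, chosen by symbol among 55471 genes in the deposited tables. HoxA has 11 of them, HoxB 10, HoxC 9 and HoxD 9. RNA was sequenced from 9 cultures of primary mouse articular chondrocytes, the cells of joint cartilage, in 3 groups of 3. The labels place the cells in femoral condyles and tibial plateaus of wild-type mice at postnatal day 5, and the methods name both ICR and C57BL/6J mice. Control cells were infected with an adenovirus, which the study's methods name Ad-Control, and Ad-OSCAR cells with a virus that expresses OSCAR, a receptor for collagen. Ad-OSCAR + 5-ASA cells carried the OSCAR virus and were also given 5-aminosalicylic acid (5-ASA), an anti-inflammatory drug, at 10 µM. The labels give 400 MOI (multiplicity of infection) after 3 days of culture and 36 h before the drug, whereas the methods give 800 MOI, 2 days of culture and 24 h with the drug. The cells of all groups were cultured on plates coated with COLpep, a collagen peptide that OSCAR binds, and no cytokine was added. The paper states in general that n counts independent biological samples, mice or human specimens, and that data came from at least 3 independent experiments. The sources used here do not say whether the 3 cultures of a group came from separate mice. The p-values thus measure the spread between these cultures, which may be technical.

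Library totals ranged from 19733448 to 28192740 estimated counts. Oscar, the overexpressed gene, had 0.123 to 0.211 CPM (the count as a share of the TMM-scaled library) in Control cultures, 6350 to 7110 CPM in Ad-OSCAR cultures and 2950 to 3720 CPM in Ad-OSCAR + 5-ASA cultures. The Oscar transcript was thus itself lower with 5-ASA (log2 fold change -0.97, adjusted p 1.76e-08), and its part in the results of 5-ASA was not tested. The cartilage genes Col2a1, Acan and Sox9 were abundant in Control cells, with Col2a1 at 32000 to 36800 CPM. With Ad-OSCAR, 13 of 14 chondrocyte markers fell and Sox5 rose. Col2a1 was then at 1950 to 2270 CPM, with log2 fold changes of -3.97 for Col2a1, -6.38 for Acan, -3.06 for Sox9, -8.21 for Ucma, -7.47 for Matn3 and -6.70 for Cnmd. In such bulk samples, fewer cells of a type and less RNA per cell cannot be told apart. The summed level of 12 macrophage and osteoclast markers moved from between 32.9 and 34.0 CPM in Control to between 48.4 and 49.4 CPM in Ad-OSCAR, with Ptprc at 0 to 2 counts in every culture. The 12 fibroblast and synovial markers summed to between 21200 and 22200 CPM in Control, between 15800 and 16700 CPM in Ad-OSCAR and between 19400 and 20400 CPM with 5-ASA. The 6 endothelial markers summed to 0.581 to 1.23 CPM in Control and 4.51 to 5.53 CPM in Ad-OSCAR, with Cdh5 at 0 to 2 counts, and the 8 osteoblast markers summed to 60.7 to 66.8 CPM in Control and 39.7 to 40.9 CPM in Ad-OSCAR. The 8 skeletal muscle markers summed to at most 1.68 CPM and the 6 erythroid markers to at most 0.123 CPM in any culture. Among called genes of these lists that averaged 1 CPM or more across the 9 cultures, the largest changes were those of Cd68 (2.06), Cd14 (1.07), Mrc1 (-0.82) and Acp5 (-0.62) for macrophages and osteoclasts, Thy1 (-2.53), Col1a2 (-2.38), Col1a1 (-1.67) and Dcn (1.1) for fibroblasts, Vwf (3.11) and Tek (1.88) for endothelium, and Ibsp (-2.74) and Runx2 (0.36) for osteoblasts, as log2 fold changes with Ad-OSCAR. The part of these shifts in the HOX results was not tested.

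Articular chondrocytes carried a HOX code made of HoxA, HoxC and HoxD genes. A gene was called expressed in a group when its TPM (an abundance scaled by transcript length and library) reached 1 in all 3 cultures. By this rule 19 of 39 HOX genes (48.7%) were expressed in Control, beside 11766 of 21974 protein-coding genes (53.5%). They included Hoxa3, Hoxa5, Hoxa6, Hoxa7, Hoxa9, Hoxa10 and Hoxa11 in HoxA, with Hoxc4, Hoxc6, Hoxc8, Hoxc9, Hoxc10, Hoxc11 and Hoxc13 in HoxC and Hoxd4, Hoxd8, Hoxd9 and Hoxd10 in HoxD. Hoxa2 and Hoxc5 joined them in Ad-OSCAR and in Ad-OSCAR + 5-ASA cells, giving 21 genes, and no gene was expressed in Control alone. No HoxB gene was expressed in any group. Among the genes not expressed in Control, those with a lowest Control TPM nearest to 1 were Hoxa13, Hoxa4 and Hoxc5. In Control, Hoxa13 had 0.83 to 2.10 TPM, Hoxa4 0.87 to 1.11 TPM and Hoxc5 0.99, 1.55 and 1.59 TPM.

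**Figure D1:**
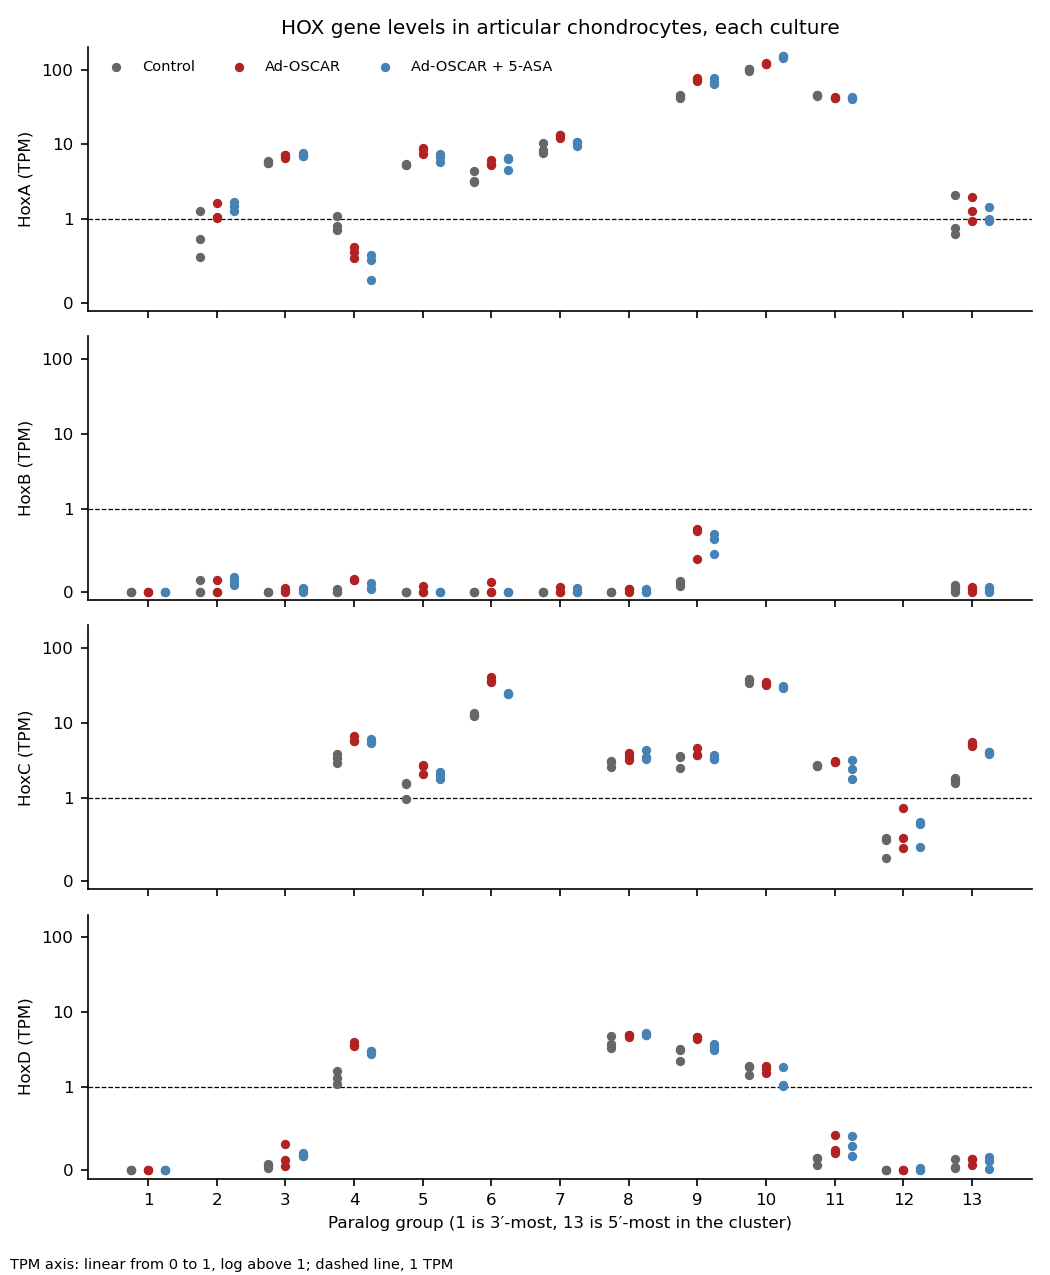
TPM of HOX genes in each of the 9 cultures, by cluster (panels) and paralog group (x axis). Each point is 1 culture, the y axis is linear from 0 to 1 and logarithmic above 1, and the dashed line marks 1 TPM. Hoxa9, Hoxa10 and Hoxa11 stand highest, and the HoxB panel holds no point above the line.

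Promoter sequences from RefSeq (GRCm38.p6) are shown for the most abundant member and for a member of the HoxB cluster, where no gene was expressed. They are also shown for the expressed gene with the largest Ad-OSCAR rise among those with a window. The table used holds windows for 22 of the 39 members. Each run is the 250 bases upstream of an annotated start, read 5′ to 3′ in the direction of the gene, with CG dinucleotides in capitals, and the 4 runs do not overlap any annotated exon. Hoxa10, the most abundant member, has windows at 2 starts, an upstream one at chr6:52240855-52241104 and an internal one at chr6:52234940-52235189, both on the minus strand. Hoxd4 is at chr2:74721728-74721977 and Hoxb4 at chr11:96318017-96318266, both on the plus strand.
Hoxa10 upstream start: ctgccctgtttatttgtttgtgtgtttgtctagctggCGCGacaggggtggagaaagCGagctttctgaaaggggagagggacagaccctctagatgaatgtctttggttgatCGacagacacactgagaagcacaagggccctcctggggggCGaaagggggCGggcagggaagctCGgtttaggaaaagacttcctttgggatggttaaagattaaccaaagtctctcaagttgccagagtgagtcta
Hoxa10 internal start: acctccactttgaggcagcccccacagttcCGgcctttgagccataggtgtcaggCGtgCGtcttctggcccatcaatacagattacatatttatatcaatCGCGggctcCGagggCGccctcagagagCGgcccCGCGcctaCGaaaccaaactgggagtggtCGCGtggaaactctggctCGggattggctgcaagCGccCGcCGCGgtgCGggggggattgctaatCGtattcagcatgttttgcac
Hoxd4: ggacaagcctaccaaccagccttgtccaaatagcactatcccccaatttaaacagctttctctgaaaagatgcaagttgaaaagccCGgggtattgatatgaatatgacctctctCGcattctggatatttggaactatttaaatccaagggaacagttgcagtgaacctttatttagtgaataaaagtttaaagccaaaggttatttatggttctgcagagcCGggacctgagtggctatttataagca
Hoxb4: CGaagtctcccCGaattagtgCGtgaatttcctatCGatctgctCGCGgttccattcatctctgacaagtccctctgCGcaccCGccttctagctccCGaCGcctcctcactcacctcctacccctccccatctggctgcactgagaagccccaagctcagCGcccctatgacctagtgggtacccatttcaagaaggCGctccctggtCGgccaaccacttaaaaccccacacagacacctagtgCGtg
The 4 windows hold 7, 20, 3 and 14 CG dinucleotides in the order printed. The median over the 24 HOX windows was 12.5, against 6.0 over 32851 windows of the table. Hoxb4, not expressed by the rule above, had more than the upstream Hoxa10 start or Hoxd4 and fewer than the internal Hoxa10 start. The level of each Hoxa10 start was not measured. TATAAA, searched on both strands, was in 4 HOX windows (Hoxa10 internal, Hoxb8, Hoxd4 and Hoxd13) and in 12.4% of all windows. TGATTNAT, a motif of HOX-PBX pairs, was in 2 HOX windows (Hoxa2 and a Hoxd11 start) and in 2.82% of all windows. TGANTCA, the AP-1 motif, was in 1 HOX window (the other Hoxd11 start) and in 6.75% of all windows. The last 2 motifs can match the same bases, but were found in different HOX windows here. A match is a description only.

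Control cells drew most of their HOX transcripts from a few genes of the posterior groups. The 39 genes summed to 298, 292 and 289 TPM in the 3 Control cultures. HoxA held 74.2% ± 1.08 of this sum (SD, n = 3), HoxC 22.3% ± 0.763, HoxD 3.45% ± 0.412 and HoxB 0.0683% ± 0.0123. By paralog group, group 10 held 47.3% ± 0.328, group 9 17.0% ± 0.386 and group 11 16.3% ± 0.634, the last 2 within their spread of each other. Group 6 followed with 5.63% ± 0.305, and every other group held at most 3.03%. The 5 genes with the highest Control means, which were Hoxa10, Hoxa11, Hoxa9, Hoxc10 and Hoxc6, held 80.5 to 82.0% of the HOX TPM of each Control culture.

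With Ad-OSCAR the sum rose to 399, 379 and 389 TPM, and with 5-ASA it was 387, 392 and 378 TPM. In TPM the 3 Control sums lay below the 6 others, which overlapped. In CPM the sums were 296 to 304 in Control, 372 to 384 with Ad-OSCAR and 388 to 409 with 5-ASA, without overlap. The make-up shifted as well. Group 6 held 11.1% ± 0.732 with Ad-OSCAR and 7.90% ± 0.302 with 5-ASA, both above Control. Group 10 held 40.1% ± 0.668 with Ad-OSCAR and 46.6% ± 0.576 with 5-ASA. Group 11 held 11.7% ± 0.214 and 11.5% ± 0.483, below Control in both. HoxC rose from 65.4 ± 2.04 TPM in Control to 96.0 ± 3.85 TPM with Ad-OSCAR and was 76.9 ± 0.531 TPM with 5-ASA, whereas HoxA was at 217 ± 5.20, 277 ± 7.15 and 295 ± 7.36 TPM. TPM shares a fixed total: the acute-phase gene Saa3 took 3.12 to 3.22% of all TPM in Control, 12.7 to 13.3% with Ad-OSCAR and 14.3 to 15.2% with 5-ASA, which lowers the TPM of other genes. Sums of several genes are given as values, with no test.

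**Figure D2:**
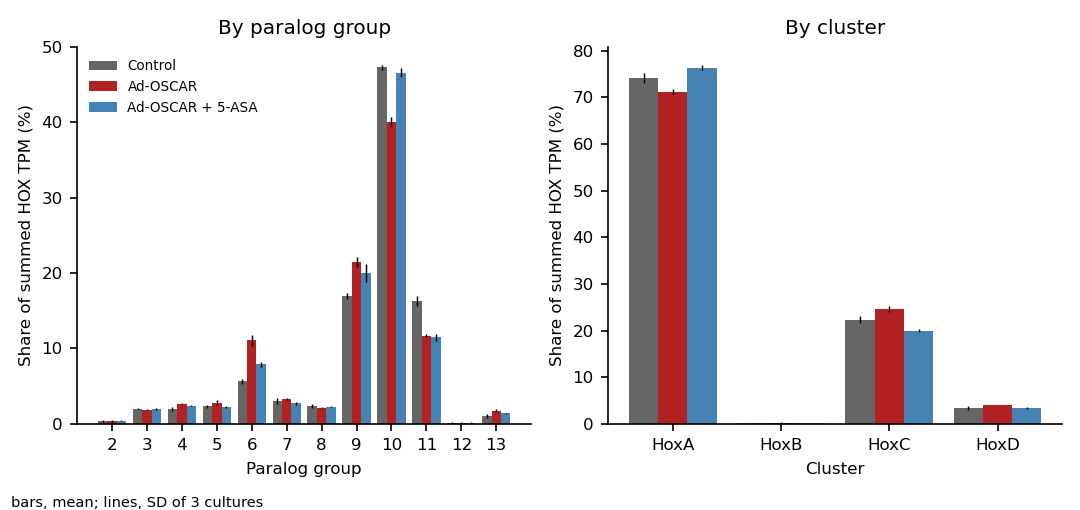
Share of the summed HOX TPM (%) held by paralog groups 2 to 13 (left) and cluster (right), with bars for the mean and lines for the SD of 3 cultures in each group. Group 6 is 5.63% in Control, 11.1% in Ad-OSCAR and 7.90% in Ad-OSCAR + 5-ASA, and group 10 is 47.3%, 40.1% and 46.6%.

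OSCAR overexpression raised more HOX genes than it lowered. Of the 39 genes, 25 passed the filter on low counts and were tested by edgeR (quasi-likelihood), with p-values adjusted by Benjamini-Hochberg over all 15362 genes tested. With Ad-OSCAR, 14 were higher than in Control at an adjusted p below 0.05 and 2 were lower. Over all genes tested, 32.7% were higher and 32.2% lower. The HOX shares were 56.0% and 8.0%. The median log2 fold change of the 25, with Hoxb9 and Hoxd11 included, was 0.51, against 0.02 for all genes. Hoxb9 and Hoxd11 were at 5 counts or fewer in Control and passed the filter through their treated cultures, so their direction was fixed by the filter. Without them, 12 of 23 (52.2%) were higher. The median log2 fold changes of HoxA and HoxC, which hold neither gene, were 0.275 and 0.555. By the study's own limits for OSCAR, a log2 fold change over 1.5 and an adjusted p below 0.05, 3 genes passed as higher in edgeR. These were Hoxb9, Hoxc6 and Hoxc13, which leaves 2 without Hoxb9 and Hoxd11. None passed as lower, and of all genes 4.57% were higher and 5.39% lower by these limits. At an unadjusted p below 0.05, 16 were higher, Hoxb9 and Hoxd11 among them, and 3 lower, beside 34.3% and 33.5% of all genes.

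**Figure D3:**
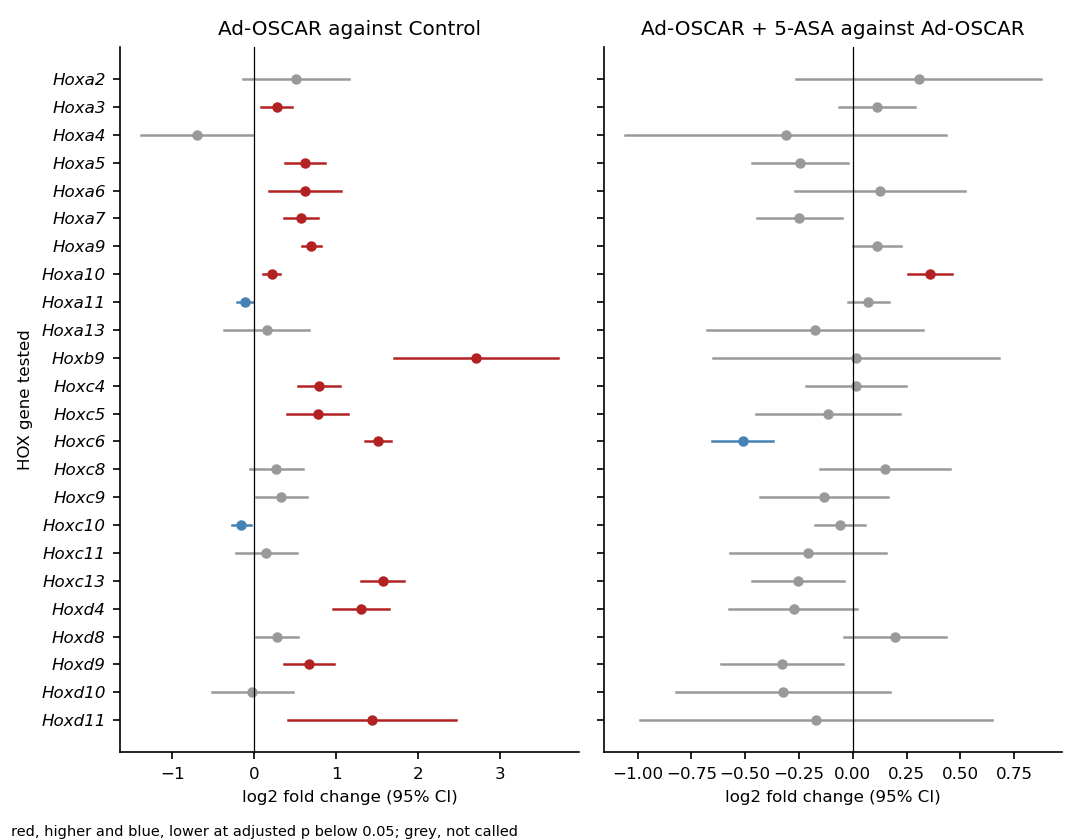
log2 fold change with its 95% confidence interval (x axis) for HOX genes tested, for Ad-OSCAR against Control (left) and Ad-OSCAR + 5-ASA against Ad-OSCAR (right). Red marks genes higher, blue genes lower and grey genes not called at an adjusted p below 0.05, with 14 red and 2 blue on the left and 1 of each on the right.

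The largest rise of an abundant gene was that of Hoxc6 (chr15:102998257-103011881), a central HoxC gene of group 6. It had 12.6, 13.6 and 12.3 TPM in Control, 35.8, 35.5 and 41.2 TPM with Ad-OSCAR and 24.3, 25.2 and 24.3 TPM with 5-ASA. The 3 groups did not overlap, and those with 5-ASA lay between the others. The log2 fold change with Ad-OSCAR was 1.51 (SE 0.08, adjusted p 3.36e-12), a 2.86-fold rise. Hoxc13 (chr15:102921103-102928814), the 5′-most HoxC gene and known for its role in hair and nails, had 2.22, 2.30 and 2.54 CPM in Control and 6.72, 6.85 and 7.38 CPM with Ad-OSCAR. Its log2 fold change was 1.57 (SE 0.12, adjusted p 2.06e-09). With 5-ASA it had 5.69, 6.02 and 5.85 CPM, all below the Ad-OSCAR cultures and above Control.

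Hoxc4, at the 3′ end of the cluster, had 3.88, 3.41 and 2.89 TPM in Control, 6.59, 5.81 and 5.67 TPM with Ad-OSCAR and 6.13, 5.44 and 5.6 TPM with 5-ASA. The treated cultures lay above all Control cultures (log2 fold change 0.79, SE 0.12, adjusted p 1.93e-05). Hoxc5 had 35, 58 and 50 counts in Control, 122, 95 and 93 with Ad-OSCAR and 102, 98 and 77 with 5-ASA, and rose by a log2 fold change of 0.78 (SE 0.18, adjusted p 0.00086). Its annotation shares exon sequence with Hoxc10 on the same strand, so reads could be split between them. Hoxc10 (chr15:102966796-102971893), a posterior gene that patterns hindlimb and lumbar levels, had 37.6, 34.1 and 38.8 TPM in Control and 34.9, 32.4 and 33.4 TPM with Ad-OSCAR. The groups overlapped, and the log2 fold change was -0.16 (SE 0.06, adjusted p 0.0211). With 5-ASA it had 30.4, 29.4 and 31.1 TPM. The Hoxc10 call was lost without Control replicate 1 or 3 (adjusted p 0.0749 and 0.0987) and without Ad-OSCAR replicate 2 or 3 (adjusted p 0.0634 and 0.0683). The other HoxC genes tested did not pass. Hoxc8 had 3.14, 3.02 and 2.61 TPM in Control and 3.93, 3.20 and 3.59 with Ad-OSCAR. Hoxc9 had 3.58, 2.49 and 3.46 TPM in Control and 4.65, 3.73 and 3.74 TPM with Ad-OSCAR (adjusted p 0.0581), and passed without Control replicate 1 (adjusted p 0.0341) or Ad-OSCAR replicate 3 (adjusted p 0.0453). Hoxc9 also passed when no filter was used (adjusted p 0.045) and when each culture had to reach 10 counts (adjusted p 0.0413). Hoxc11 had 2.71, 2.68 and 2.65 TPM in Control and 3.07, 3.02 and 3.01 TPM with Ad-OSCAR, a log2 fold change of 0.15 (95% CI -0.22 to 0.52). With 5-ASA, Hoxc8 had 3.30, 4.34 and 3.54 TPM, Hoxc9 3.72, 3.34 and 3.31 TPM and Hoxc11 1.80, 3.17 and 2.39 TPM.

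In HoxA the posterior genes split. Hoxa9 (chr6:52223100-52231089) had 41.6, 41.9 and 45.7 CPM in Control, 70.7, 68.1 and 70.7 CPM with Ad-OSCAR and 75.8, 80.5 and 70.4 CPM with 5-ASA. Its treated cultures all lay above Control, with a log2 fold change of 0.70 with Ad-OSCAR (SE 0.06, adjusted p 3.31e-09). Hoxa10 (chr6:52231197-52240854), the highest HOX gene, stood at the 90.6th percentile of the genes tested by Control TPM. It had 92.7, 93.7 and 90.4 CPM in Control, 109, 109 and 103 CPM with Ad-OSCAR and 142, 141 and 129 CPM with 5-ASA. The groups did not overlap, and the Ad-OSCAR change was small (log2 fold change 0.21, SE 0.05, adjusted p 0.00106). Hoxa11 (chr6:52242106-52245810), the gene of the middle limb segment, had 55.7, 57.1 and 58.4 CPM in Control, 53.1, 53.9 and 51.6 CPM with Ad-OSCAR and 56.3, 54.1 and 56.3 CPM with 5-ASA. Its Ad-OSCAR cultures lay just below Control (log2 fold change -0.11, SE 0.05, adjusted p 0.0431). The Hoxa11 call held in 4 of 17 alternatives, with adjusted p up to 0.152. It was lost without Control replicate 2 or 3, without any 1 Ad-OSCAR replicate and without Ad-OSCAR + 5-ASA replicate 1, with adjusted p from 0.053 to 0.14. Its exons overlap the antisense gene Hoxa11os, which was at 14.1 ± 0.90 CPM in Control and 12.6 ± 1.2 CPM with Ad-OSCAR. Hoxa13, the gene of hand and foot, had 34, 29 and 21 counts in Control, 31, 43 and 43 with Ad-OSCAR and 36, 36 and 29 with 5-ASA, and the groups overlapped. Its TPM in Control replicate 1, 2.10, and in replicate 2, 0.90, came from similar counts, since the effective length that RSEM assigned ran from 1250 to 2200 bases in Control.

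The anterior and central HoxA genes mostly rose, by less than Hoxc6. Hoxa5, which patterns the neck and lung, had 5.33, 5.29 and 5.46 TPM in Control, 8.77, 8.98 and 7.41 with Ad-OSCAR and 5.81, 6.75 and 7.39 with 5-ASA. Its log2 fold change was 0.62 (SE 0.11, adjusted p 0.000114). Hoxa7 had 10.3, 8.34 and 8.14 CPM in Control, 14, 12.4 and 13.5 CPM with Ad-OSCAR and 11.8, 10.1 and 11.7 CPM with 5-ASA, with a log2 fold change of 0.57 (SE 0.10, adjusted p 6.63e-05). In both genes every Ad-OSCAR culture was above every Control culture. Hoxa6 had 28, 33 and 35 counts in Control, 75, 55 and 58 with Ad-OSCAR and 72, 55 and 71 with 5-ASA (log2 fold change 0.62, SE 0.21, adjusted p 0.0142). Hoxa3 had 8.07, 7.60 and 7.61 CPM in Control, 9.47, 10.0 and 8.69 CPM with Ad-OSCAR and 10.6, 10.1 and 9.80 CPM with 5-ASA (log2 fold change 0.28, SE 0.09, adjusted p 0.0127). The locus of Hoxa3 overlaps antisense genes, among them Hoxaas2 and Hoxaas3, and Hoxa7 overlaps Hoxaas3. The Hoxa3 call was lost with DESeq2 (adjusted p 0.0776) and without Ad-OSCAR replicate 2 (adjusted p 0.0506). The Hoxa6 call was lost with DESeq2 (adjusted p 0.0555) and without Control replicate 1, Control replicate 2 or Ad-OSCAR replicate 1 (adjusted p 0.0609, 0.0562 and 0.0564). Hoxa2 and Hoxa4 did not pass. Hoxa2 had 11, 30 and 14 counts in Control, 46, 25 and 28 with Ad-OSCAR and 34, 47 and 37 with 5-ASA (log2 fold change 0.51 with Ad-OSCAR, 95% CI -0.13 to 1.16). Without Control replicate 2 Hoxa2 passed (log2 fold change 0.946, adjusted p 0.0233). Hoxa4 had 20, 19 and 14 counts in Control, 15, 14 and 12 with Ad-OSCAR and 12, 14 and 6 with 5-ASA. It was the HOX gene with the lowest fold change with Ad-OSCAR (log2 fold change -0.70, SE 0.32, adjusted p 0.0674).

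Among the expressed HoxD genes, Hoxd4 (chr2:74711929-74729160) rose most. It had 1.46, 1.27 and 1.43 CPM in Control, 3.32, 3.49 and 3.49 CPM with Ad-OSCAR and 2.92, 2.66 and 2.92 CPM with 5-ASA, in groups that did not overlap (log2 fold change 1.31 with Ad-OSCAR, SE 0.16, adjusted p 1.36e-06). Its exons overlap those of Hoxd3 on the same strand and of Hoxd3os1 on the other, so its counts may be split with them. Hoxd9, a limb gene of group 9, had 3.68, 2.63 and 3.81 CPM in Control, 5.43, 5.21 and 5.31 CPM with Ad-OSCAR and 4.31, 3.87 and 4.55 CPM with 5-ASA (log2 fold change 0.67, SE 0.14, adjusted p 0.000478). Its Ad-OSCAR cultures were above all the others. Hoxd8 had 4.76, 3.30 and 3.71 TPM in Control, 4.93, 4.88 and 4.63 TPM with Ad-OSCAR and 5.27, 4.93 and 4.96 TPM with 5-ASA, and did not pass with Ad-OSCAR (adjusted p 0.0553). It passed without Ad-OSCAR replicate 2 (adjusted p 0.0378) or Ad-OSCAR + 5-ASA replicate 3 (adjusted p 0.0447). Hoxd8 also passed when each culture had to reach 10 counts (adjusted p 0.042) and with only the 2 groups compared (adjusted p 0.0496). Hoxd10 had 1.43, 1.84 and 1.92 TPM in Control, 1.55, 1.91 and 1.75 with Ad-OSCAR and 1.07, 1.02 and 1.84 with 5-ASA. Its groups overlapped (log2 fold change -0.03 with Ad-OSCAR, 95% CI -0.52 to 0.47).

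**Figure D4:**
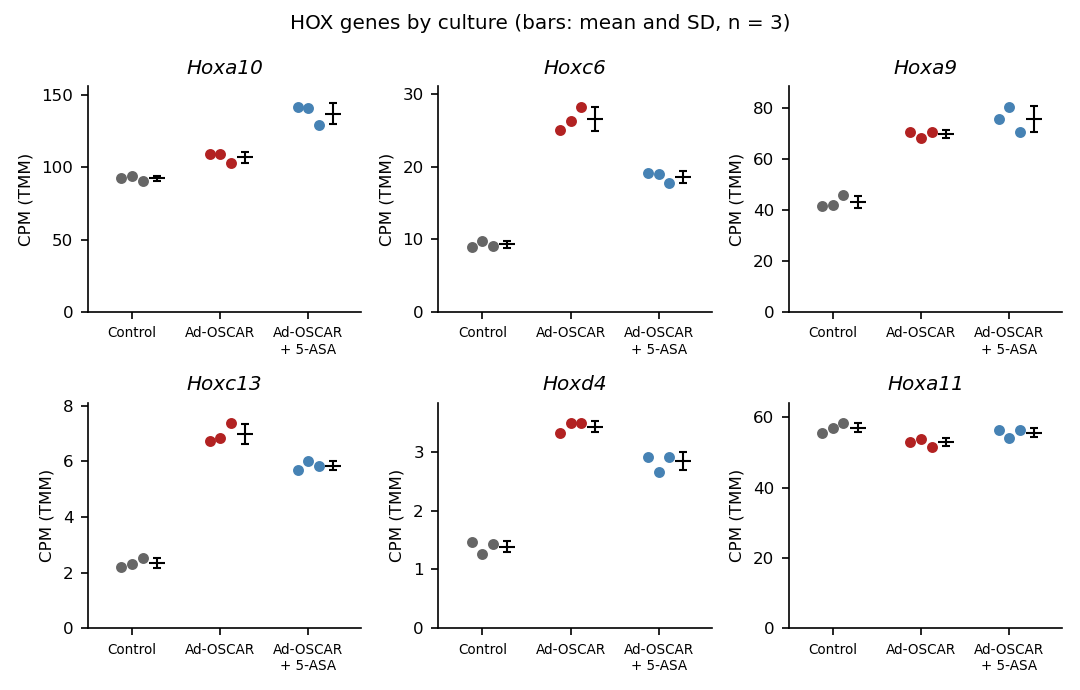
CPM after TMM scaling (y axis, from 0) of Hoxa10, Hoxc6, Hoxa9, Hoxc13, Hoxd4 and Hoxa11 in each culture (points) of Control, Ad-OSCAR and Ad-OSCAR + 5-ASA cells, with the mean and SD of 3 cultures beside them. Hoxc6, Hoxc13 and Hoxd4 are highest in Ad-OSCAR cells, Hoxa10 is highest with 5-ASA, and Hoxa11 lies between 51.6 and 58.4 CPM.

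The HoxB cluster and the posterior end of HoxD stayed near the floor of detection. The 14 members not tested were Hoxb1 to Hoxb8, Hoxb13, Hoxc12, Hoxd1, Hoxd3, Hoxd12 and Hoxd13, with at most 13 counts and 0.88 TPM in any culture. Hoxb1 and Hoxd1 had 0 counts in all 9 cultures, where 3 counts, taken as the highest level that a count of 0 allows, correspond to 0.102 to 0.159 CPM. This floor, like the intervals of ratios given here, covers counting error only. Hoxb9 was the HoxB gene that passed the filter, with 3, 2 and 3 counts in Control, 15, 25 and 28 with Ad-OSCAR and 16, 27 and 24 with 5-ASA. The ratio of its summed counts per library size with Ad-OSCAR to Control was 6.73 (95% CI 3.23 to 16.2), and it stayed under 0.8 TPM. Hoxb4 had 0, 1 and 0 counts in Control, 6, 5 and 6 with Ad-OSCAR and 4, 2 and 1 with 5-ASA. Its ratio with Ad-OSCAR was 13.5 (95% CI 2.11 to 563), an interval set by the single Control count. Hoxb4 was called higher with Ad-OSCAR by DESeq2 and when no filter was used. Hoxd11, of the middle limb segment like Hoxa11, had 2, 5 and 3 counts in Control and 16, 10 and 9 with Ad-OSCAR, a ratio of 2.77 (95% CI 1.34 to 6.28), and 13, 11 and 6 with 5-ASA. Hoxd3 had 2, 1 and 2 counts in Control and 5, 2 and 13 with Ad-OSCAR. Hoxd13 had 1 to 4 counts in Control and 2 to 5 with Ad-OSCAR, and Hoxd12 had a single count, with 5-ASA.

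Among the non-coding genes of the clusters, a list of 9 written after the files were seen, none of the 4 tested was called in either direction by edgeR with Ad-OSCAR or with 5-ASA, and none had an unadjusted p below 0.05. Hoxa11os was the most abundant, with 279 to 404 counts a culture. Hoxaas2 had 28 to 53 counts, Hotairm1 11 to 29 and Hotair 5 to 11. Hoxd3os1, which lies antisense to Hoxd3 and Hoxd4, had 6, 2 and 7 counts in Control, 19, 18 and 10 with Ad-OSCAR and 7, 6 and 7 with 5-ASA. In CPM its groups overlapped, with 0.364 CPM in Ad-OSCAR replicate 3 and 0.37 CPM in Control replicate 3, and it was not tested.

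With 5-ASA, 2 of the 25 HOX genes tested were called, in opposite directions. Hoxa10 rose and Hoxc6 fell against Ad-OSCAR, beside 10.4% higher and 7.38% lower of all genes tested. Hoxa10 went from 103 to 109 CPM in Ad-OSCAR cultures to 129 to 142 CPM (log2 fold change 0.36, SE 0.05, adjusted p 4.35e-05). Hoxc6 went from 25.1 to 28.3 CPM to 17.7 to 19.2 CPM (log2 fold change -0.51, SE 0.07, adjusted p 2.83e-05). Both calls held in all 17 alternatives. Hoxc6 was thereby nearer to its Control level of 8.92 to 9.82 CPM, and Hoxa10 further above its own of 90.4 to 93.7 CPM. The comparison with Control and the comparison with 5-ASA share the Ad-OSCAR cultures, so the Hoxc6 values are given side by side only.

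At an unadjusted p below 0.05, 2 HOX genes were higher with 5-ASA (Hoxa9 and Hoxa10) and 5 lower (Hoxa5, Hoxa7, Hoxc6, Hoxc13 and Hoxd9), beside 16.4% higher and 13.9% lower of all genes. Hoxa9 was higher in counts but not in TPM, whose mean went from 74.5 with Ad-OSCAR to 69.7 with 5-ASA. The effective length that RSEM assigned to Hoxa9 was 1540 to 1600 bases with Ad-OSCAR and 1640 to 1740 bases with 5-ASA. Hoxd9 had the lowest fold change of those not called, a log2 value of -0.33 (SE 0.13, adjusted p 0.103), and every 5-ASA culture was below every Ad-OSCAR culture. Hoxc13 had -0.25 (SE 0.10, adjusted p 0.0993) and Hoxd4 -0.28 (SE 0.14, adjusted p 0.201), with the same separation. For Hoxa11 the log2 fold change was 0.07 (95% CI -0.02 to 0.17) and for Hoxb9 0.01 (95% CI -0.65 to 0.68). In CPM the Hoxa11 groups just missed each other, with at most 53.9 with Ad-OSCAR and at least 54.1 with 5-ASA, and in TPM they overlapped. The Hoxb9 groups overlapped. The study's limits for 5-ASA, a fold above 1.5 and an unadjusted p below 0.05, were set for 5-ASA cells against Control. Applied here against Ad-OSCAR, they passed no HOX gene in edgeR, beside 2.27% higher and 1.87% lower of all genes. Without Ad-OSCAR + 5-ASA replicate 3 Hoxa9 was called higher too, and without Ad-OSCAR replicate 3 Hoxa5 was called lower too.

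Against Control, Ad-OSCAR + 5-ASA cells had 16 HOX genes higher and 2 lower, beside 31.4% higher and 31.8% lower of all genes tested. Without Hoxb9 and Hoxd11, whose direction the filter fixed, 14 of 23 were higher. By the study's limits for 5-ASA, 10 were higher (8 without Hoxb9 and Hoxd11) and Hoxa4 was lower, beside 14.6% higher and 15.3% lower of all genes. The Control cultures are those of the first comparison. Hoxa2 (log2 fold change 0.82, SE 0.30, adjusted p 0.0236), Hoxc8 (0.42, SE 0.15, adjusted p 0.0232) and Hoxd8 (0.47, SE 0.12, adjusted p 0.00233) passed here and not with Ad-OSCAR alone. Hoxd9 did not pass (adjusted p 0.0518). Hoxa2 and Hoxc8 were not called without Control replicate 3 or Ad-OSCAR + 5-ASA replicate 2, nor Hoxa2 without Control replicate 1. Hoxa7 was not called without Control replicate 2 or 3. DESeq2 did not call Hoxa2, Hoxc8 or Hoxd11. Limma on log2(TPM + 0.5) did not call Hoxa5, Hoxa7, Hoxc8 or Hoxd11, whereas the median-centred TPM fit called each of these. Hoxd9 passed without Control replicate 1 or 3 or Ad-OSCAR + 5-ASA replicate 2. The lower genes were Hoxa4 (-1.01, SE 0.34, adjusted p 0.0147) and Hoxc10 (-0.21, SE 0.06, adjusted p 0.003). Hoxa4 was not called without Control replicate 1 or Ad-OSCAR + 5-ASA replicate 3. Hoxa9 had the clearest rise of an abundant gene (0.81, SE 0.06, adjusted p 4.35e-10), with Hoxc6 at 1.00 (SE 0.08, adjusted p 2.49e-09).

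The genes that mark hindlimb and forelimb were read beside the HOX code. Pitx1, which drives hindlimb identity, had 105, 88.0 and 114 CPM in Control, 60.6, 58.3 and 51.0 CPM with Ad-OSCAR and 51.6, 46.1 and 51.7 CPM with 5-ASA. It fell with Ad-OSCAR (log2 fold change -0.85, SE 0.08, adjusted p 3.32e-08). Tbx4, its hindlimb partner, had 35.2, 32.7 and 35.1 CPM in Control, 27.2, 29.7 and 28.1 CPM with Ad-OSCAR and 28.5, 25.1 and 28.8 CPM with 5-ASA (log2 fold change -0.28, SE 0.06, adjusted p 0.000765). Control cultures lay above the treated ones for both genes. Tbx5, the forelimb T-box gene, was detected too, at 8.02, 8.88 and 8.72 CPM in Control and 4.72, 5.62 and 4.91 CPM with Ad-OSCAR (log2 fold change -0.75, SE 0.11, adjusted p 1.13e-05). Isl1, an early hindlimb gene, had at most 6 counts. All 3 tested genes of this list were thus lower with Ad-OSCAR, beside 32.2% of all genes tested. With 5-ASA none was called by edgeR, beside 10.4% higher and 7.38% lower of all genes. Only 1 had an unadjusted p below 0.05 with 5-ASA (Pitx1, log2 fold change -0.18, p 0.0396).

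**Figure D5:**
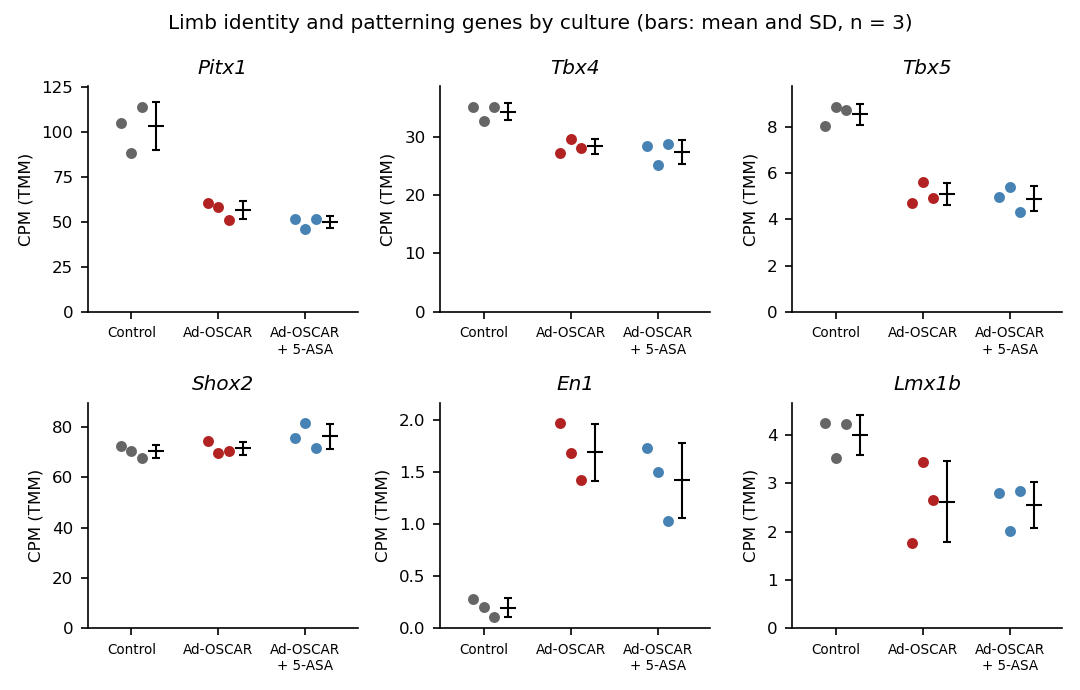
CPM after TMM scaling (y axis, from 0) of Pitx1, Tbx4, Tbx5, Shox2, En1 and Lmx1b in each culture (points) of the 3 groups, with the mean and SD of 3 cultures beside them. Pitx1, Tbx4 and Tbx5 are lower with Ad-OSCAR. En1, whose direction the filter fixed, is higher, and Shox2 lies between 67.7 and 81.5 CPM throughout.

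Of 29 limb axis and patterning genes, 20 were tested, of which 8 were higher and 6 lower with Ad-OSCAR, and 2 were lower with 5-ASA (Ptch1 and Grem1). These counts, like those of the lists that follow, stand beside the 32.7% higher and 32.2% lower of all genes with Ad-OSCAR. With 5-ASA the shares of all genes were 10.4% and 7.38%. Grem1, a BMP antagonist of the limb bud, rose from 273 ± 11.6 to 1650 ± 45.5 CPM (log2 fold change 2.6, SE 0.04, adjusted p 1.57e-18). Tbx18 rose from 61.0 ± 1.46 to 161 ± 2.38 CPM (1.40, SE 0.05, adjusted p 1.72e-14). En1, which marks the ventral limb ectoderm, had 6, 5 and 2 counts in Control and 58, 41 and 39 with Ad-OSCAR. En1 passed the filter through its treated cultures, so its direction was fixed by the filter, though it is counted among the 8 higher. Dlx5 fell from 2.37 ± 0.05 to 0.552 ± 0.279 CPM (-2.09, SE 0.28, adjusted p 3.69e-06). Lmx1b, the dorsal limb gene, fell from 4.0 ± 0.41 to 2.62 ± 0.84 CPM (-0.62, SE 0.20, adjusted p 0.013). Shox2, of the upper limb segment, was not called (0.03, SE 0.05, adjusted p 0.697). Shh, Hand1 and Evx1 had 0 counts in all 9 cultures, and Evx2, next to HoxD, was near 0. The 6 ParaHox and Cdx genes, relatives of the HOX genes, were under the filter, and 4 had 0 counts in every culture.

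The joint and articular list had 4 of its 10 tested genes higher and 4 lower with Ad-OSCAR. The higher ones included Prg4, the gene of the lubricant lubricin (log2 fold change 1.86, SE 0.04, adjusted p 9.8e-17), Gdf5 (1.5, SE 0.06, adjusted p 1.65e-13) and Gdf6 (1.34, SE 0.13, adjusted p 3.69e-08), growth factors of joint formation. Osr2 was lower (-1.25, SE 0.20, adjusted p 2.35e-05).

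The list of HOX cofactors and related TALE genes did not move as one. All 11 genes of this list were tested, of which 4 were higher (Pbx2, Pbx4, Meis1 and Tgif1) and 4 lower (Pbx3, Meis2, Pknox2 and Tgif2) with Ad-OSCAR. Pbx4 had 7, 7 and 5 counts in Control and 28, 17 and 22 with Ad-OSCAR. It passed the filter through its Ad-OSCAR cultures, so its direction was fixed by the filter. Tgif1, a repressor of this family, rose from 37.3 ± 1.34 to 127 ± 4.86 CPM (log2 fold change 1.77, SE 0.05, adjusted p 1.11e-15). Meis1 rose from 7.29 ± 0.72 to 13.2 ± 1.11 CPM (0.86, SE 0.11, adjusted p 1.12e-06), whereas Meis2 fell from 5.36 ± 0.54 to 3.85 ± 0.46 CPM (-0.48, SE 0.13, adjusted p 0.00394). Pknox2 fell from 2.89 ± 0.09 to 0.887 ± 0.139 CPM (-1.70, SE 0.21, adjusted p 8.93e-07).

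The regulators of the clusters split likewise. Of 22 Polycomb genes, all tested, 8 were higher and 4 lower with Ad-OSCAR. Ezh2, the H3K27 methyltransferase, fell from 21.9 ± 0.43 to 17.4 ± 0.26 CPM (log2 fold change -0.34, SE 0.06, adjusted p 0.000107). Phf19, an accessory subunit, fell from 8.69 ± 0.82 to 1.19 ± 0.12 CPM (-2.86, SE 0.17, adjusted p 4.5e-11), while Mtf2, its relative, rose from 22.5 ± 0.68 to 49.9 ± 3.41 CPM (1.15, SE 0.06, adjusted p 9.98e-12) and Cbx7 rose (1.16, SE 0.14, adjusted p 1.28e-06). Rbbp7 fell (-0.75, SE 0.05, adjusted p 6.96e-11). Of 14 Trithorax and H3K27 demethylase genes, 6 were higher and 3 lower. Kmt2a, a methyltransferase that keeps HOX genes active, rose from 93.5 ± 1.63 to 138 ± 9.30 CPM (0.56, SE 0.06, adjusted p 1.13e-07). Kmt2c, Men1 and Psip1 fell by 0.31, 0.32 and 0.31 on the log2 scale. Of 18 retinoic acid genes, which signal to the 3′ ends of the clusters, 11 were tested, with 3 higher and 5 lower. Crabp2, a retinoic acid carrier, rose (1.12, SE 0.12, adjusted p 2.55e-07), as did Rdh10, which makes the precursor (0.55, SE 0.08, adjusted p 5.95e-06). The degrading enzyme Cyp26b1 fell (-0.58, SE 0.12, adjusted p 0.000402), as did the receptor Rarg (-0.52, SE 0.05, adjusted p 1.7e-08).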

How the data were processed

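RNA from 9 cultures was sequenced by the authors with a stranded mRNA kit. According to the study's methods and processing notes, the authors trimmed reads with BBDuk, aligned them to GRCm38 with STAR 2.7.1a and estimated gene levels with RSEM 1.3.1. The deposited estimated counts need not be whole and are not scaled, and between 8.97% and 10.1% of genes had values that were not whole in a culture. The deposited TPM, made by the authors with RSEM, are scaled per transcript length and library. The strand setting of RSEM is not given in the sources used here. Of 55471 genes, 55230 were found in GENCODE M21, used for symbols and coordinates.

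Estimated counts were rounded and tested in R 4.3.3 with edgeR 4.0.16 (TMM, filterByExpr, quasi-likelihood F test, all 9 cultures in one fit, group as the factor, Benjamini-Hochberg adjustment over 15362 genes). Standard errors came from the log2 fold change and its F statistic. The fit was tested on simulated data. Alternatives were RLE scaling, DESeq2 1.42.0, no filter or at least 10 counts per culture, a fit of 2 groups, a replicate block, limma 3.58.1 on log2(TPM + 0.5) and leaving out each culture. A median-centred TPM fit was added after seeing the data. A count of 0 was taken to allow a level of up to 3 counts, and ratios of summed counts have exact 95% binomial intervals. Every HOX gene expressed in a group (TPM of at least 1 in all 3 cultures) is named with its values. In the lists, up to 4 called genes with at least 1 CPM and the largest change with Ad-OSCAR were eligible to be named, with fixed limb, cofactor and chromatin genes, and Pbx2, Pbx3, Pbx4, Tgif2, Isl1, Sox5, Ptch1, Lmx1b, Shox2, Shh, Hand1, Evx1, Evx2, Ptprc and Cdh5 were named after their values were seen. The single-gene results of 1 member and 1 cofactor are not reported here, though both stay in the counts. The members and lists were chosen with earlier results of these data known. Python 3.11.15 was used for tables and plots, with pandas 2.3.3, scipy 1.17.1 and matplotlib 3.10.9.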

Additional observations from a re-analysis of the deposited data

How the results depend on the processing

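The number of HOX genes higher with Ad-OSCAR, the number higher with 5-ASA against Control and the 19 genes expressed in Control stayed within 1.5 times of their value in every alternative run. Of the 16 genes called with Ad-OSCAR, 10 were called in every alternative, as were both genes called with 5-ASA. Hoxb9, whose direction the filter fixed, was called in each alternative that tested it. The number lower with Ad-OSCAR, 2, was 1 without a filter, with 10 counts in every culture, with DESeq2, with only the 2 groups compared (Hoxc10 each time) and with limma on log2(TPM + 0.5), centred or not (Hoxa4). It ran from 0 to 2 when cultures were left out, 0 without Control replicate 3, Ad-OSCAR replicate 2 or Ad-OSCAR replicate 3. The number lower with 5-ASA against Control, 2, was 1 with 10 counts in every culture and with DESeq2, and 1 to 2 when cultures were left out. With 5-ASA against Ad-OSCAR, the numbers higher and lower, 1 each, ran from 1 to 2.

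Replicate numbers did not pair the samples (correlations of deviations -0.0724 to 0.0402). With the replicate block, 15 HOX genes were higher and 1 lower with Ad-OSCAR, 1 higher and 1 lower with 5-ASA, and 17 higher and 2 lower with 5-ASA against Control. With the block, Hoxc9 passed (adjusted p 0.0447) and Hoxa11 did not (adjusted p 0.061) with Ad-OSCAR, Hoxd9 passed with 5-ASA against Control, and no other HOX call changed. Low members are limited by depth: 3 counts correspond to 0.102 to 0.159 CPM, and differences of genes with fewer than 10 counts a culture rest on counting error as much as on the spread between cultures.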
